A study of Arabis alpina with 12 samples.

Results

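UFO, CRC, AGL19, SPL3 and SPL5, which are 5 genes of the flowering pathway, were followed in buds of Arabis alpina, a perennial relative of Arabidopsis thaliana. They are the A. alpina genes whose listed A. thaliana homologue is AT1G30950, AT1G69180, AT4G22950, AT2G33810 or AT3G15270 in at least 1 of the authors' comparison tables. Each locus matched 1 gene, giving 5 of the 19722 genes counted, of which 3884 stand in at least 1 comparison table and 2902 of those have a homologue named. UFO is Aa_G355720, CRC is Aa_G690520, AGL19 is Aa_G20000, SPL3 is Aa_G438780 and SPL5 is Aa_G1050. The tables list UFO, CRC and SPL5 as changed in 2 comparisons each, and AGL19 and SPL3 in 1 each. All 5 passed the filter on low values in every comparison.

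The data are messenger RNA profiles of lateral buds of the ecotype Pajares in 4 groups of 3 biological replicates. The V3 5 d group holds buds of the growing zone taken 5 days after the return from cold to long days, and the V2 5 d group holds buds of the dormant zone from the same time. The V3 0 d and V2 0 d groups hold buds of the same zones taken on the last day of cold. All 4 groups had grown for 8 weeks in long days, with 16 h of light at 20 °C and 8 h of dark at 18 °C, and had then been held at 4 °C for 12 weeks. Every group was therefore vernalized, and no group without cold is included. The number of plants and buds behind a library is not given in the sources used here.

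In A. thaliana, shoot meristems turn from making leaves to making flowers when promoting transcription factors outweigh repressors at the shoot tip. Long cold favours this change by silencing repressors and raising some MADS-box promoters, and ageing favours it through SPL factors, whose messengers are cut by the microRNA miR156 in young plants. In perennials such as A. alpina only some shoots become floral after cold, while other buds stay vegetative or dormant. AGL19 is a MADS-box promoter of flowering that rises in long cold in A. thaliana, and SPL3 and SPL5 are small SPL factors that activate meristem identity genes there. UFO is an F-box protein that works with LFY to switch on the petal and stamen gene AP3, and CRC is a YABBY factor of carpels and nectaries.

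Recovered reads summed over genes ran from 18377958 to 22586938 in 11 libraries and came to 12252622 in V2 0 d replicate 3. The normalized count of 1 read, here the step, was 1.133 in V2 0 d replicate 3. It was 1.138 in V2 5 d replicate 1, which had 18377958 reads. Ratios of summed reads below are scaled by this step. V2 0 d replicate 3 held 6553 zeros that other values contradict, against 886 to 1224 in each of the others, and such zeros were left out. How far its low sum reflects such zeros or fewer reads sequenced was not tested. V3 0 d replicate 1 stood apart from its group on the first principal component, at 86.2 against 40.3 and 56.2. Of 17 meristem and boundary markers, 4 (KNAT6, CUC1, CUC3 and RAX1) could be paired with a gene, and each reached at least 10 normalized counts in at least 1 library of every group, so markers of buds were present in all 4. Values below are normalized counts per library unless FPKM is named, and a difference is a log2 difference of normalized count + 1 with its 95% interval, called when limma's adjusted p was under 0.05.

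UFO, the F-box gene, was low in growing-zone buds at 5 d and at 1 common level in the other groups. It had 45.8, 86.5 and 80.5 counts in V3 5 d, 328, 268 and 353 in V2 5 d, 294, 369 and 299 in V3 0 d, and 308, 371 and 310 in V2 0 d. All 3 V3 5 d libraries lay below all 9 others, and the ranges of the other groups overlapped. The means were 70.9 ± 22.0 in V3 5 d and 316 ± 43.4 in V2 5 d (SD, n = 3 each), a 4.46-fold lower level in V3.

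**Figure D1:**
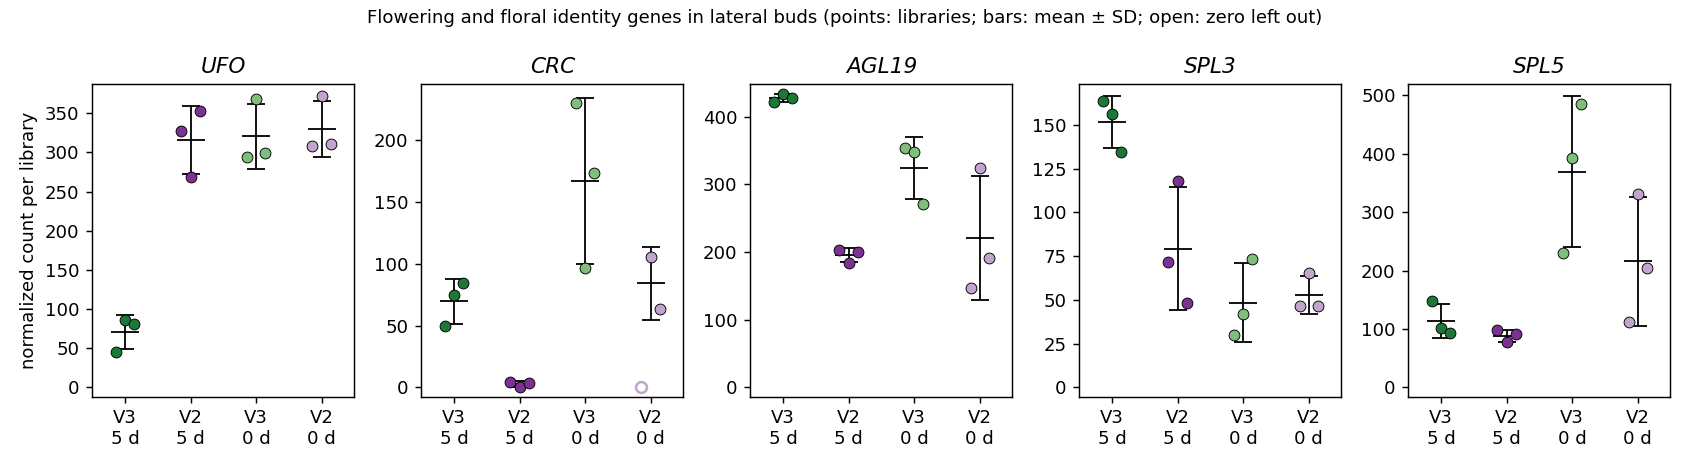
Normalized counts of UFO, CRC, AGL19, SPL3 and SPL5 (y axis, 1 panel per gene) in the V3 5 d, V2 5 d, V3 0 d and V2 0 d groups. Points are libraries, bars are means ± SD over usable libraries, and the open point is the CRC zero left out; UFO lies between 45.8 and 86.5 in V3 5 d and above 268 in every other library, while CRC lies under 5 in V2 5 d.

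On the log2 scale UFO was lower in V3 5 d than in V2 5 d by -2.18 (-2.72 to -1.65, adjusted p = 0.000267). Within V3, it fell between 0 d and 5 d by 2.21 on the log2 scale (interval -2.74 to -1.67, adjusted p = 0.000239), and only 1.77% of tested genes had a lower difference. Within V2 the difference was -0.06 (-0.60 to 0.47, adjusted p = 0.877), and between the zones at 0 d it was -0.04 (-0.58 to 0.49, adjusted p = 0.945). Subtracting the V2 change from the V3 change gave -2.14 (-2.90 to -1.38, adjusted p = 0.00617), so the fall in V3 differed from the change in V2 by the test of that difference itself. The UFO calls between the zones at 5 d, over time in V3 and for the difference between the changes held under every alternative run.

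Markers of meristems and organ boundaries were also low in V3 5 d. The sum of the 4 paired meristem and boundary markers ran from 286 to 371 counts in V3 5 d and from 689 to 787 in V2 5 d, against 936 to 1134 in V3 0 d and 965 to 1126 in V2 0 d. Of the 4, 3 were lower in V3 5 d than in V2 5 d (19.9% of all genes were) and 4 were lower in V3 5 d than in V3 0 d (11% of all genes were). Pairing ran through the authors' tables of changed genes, so the 4 were chosen on these libraries. Their counts are therefore not independent evidence of a direction. KNAT6, a homeobox gene of this list, averaged 178 ± 40.4 in V3 5 d and 414 ± 50.6 in V2 5 d (n = 3 each; -1.23, adjusted p = 0.000848). In whole buds, fewer cells of a type and less RNA per cell cannot be told apart, and the part of the marker change in the UFO result was not tested.

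CRC, the carpel and nectary factor, was nearly undetected in dormant-zone buds at 5 d and present in growing-zone buds at both times. It had 49.7, 74.9 and 84.2 counts in V3 5 d, against 4.55, 0 and 3.59 in V2 5 d. These values rest on 51, 71 and 90 reads in V3 5 d and on 4, 0 and 4 reads in V2 5 d. At 0 d it had 231, 97.0 and 174 counts in V3, and 0, 105 and 63.4 in V2. The groups at 5 d did not overlap, whereas those at 0 d did.

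The 0 in V2 0 d replicate 1 was left out as contradicted, because the authors' FPKM for that library was 1.02. This is a close decision, since FPKM of 0.841 to 1.51 went with 0 to 4 reads in V2 5 d. A count of 0 reads allows up to 3 reads, or 2.74 normalized counts in V2 0 d replicate 1 and 2.97 in V2 5 d replicate 2, counting error only.

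CRC was higher in V3 5 d than in V2 5 d by 4.55 (3.07 to 6.03, adjusted p = 0.00126), and 0.486% of tested genes had a higher difference. Over summed reads the ratio was 26.2 (13.03 to 61.4, counting error only), whereas the mean FPKM differed 5.58-fold, 6.87 ± 1.49 in V3 5 d and 1.23 ± 0.348 in V2 5 d (SD, n = 3 each). Within V2, CRC was lower at 5 d than at 0 d by -4.81 (-6.47 to -3.16, adjusted p = 0.0032, 2 usable libraries at 0 d). Over summed reads scaled by depth, the ratio of V2 5 d to V2 0 d was 0.0492 (0.0209 to 0.0994) with all libraries, and 0.0311 (0.0132 to 0.0628) with the contradicted 0 left out. By FPKM over all libraries, V2 5 d was 3.90-fold below V2 0 d, with means of 1.23 ± 0.348 in V2 5 d and 4.80 ± 3.79 in V2 0 d (SD, n = 3 each) and overlapping ranges, against 31.1-fold by mean count of the usable libraries.

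Both CRC calls depended on how zeros and spread were handled. With zeros as deposited, the difference at 5 d was again 4.55 with an adjusted p of 0.0824, and the difference within V2 was -2.69 with an adjusted p of 0.316. EdgeR on the recovered reads gave adjusted p-values of 0.104 and 0.155, and DESeq2 gave 0.00463 and 0.0114. Without V2 0 d replicate 2 or replicate 3, the difference within V2 could not be tested, since 1 usable library was left.

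The other CRC differences did not pass the test. V3 0 d minus V2 0 d was 0.94 (-0.72 to 2.59, adjusted p = 0.447), although FPKM was 10.1 to 22.1 in V3 0 d and 1.02 to 8.60 in V2 0 d, which do not overlap. With zeros as deposited that difference was 3.06 (adjusted p = 0.355), and over summed reads scaled by depth the ratio of V3 0 d to V2 0 d was 3.07 (2.56 to 3.68, counting error only). V3 5 d minus V3 0 d was -1.20 (-2.68 to 0.28, adjusted p = 0.22), with counts in V3 at 5 d all below those at 0 d. The change in V3 minus that in V2 was 3.62 (1.39 to 5.84, adjusted p = 0.0621), and with zeros as deposited it was 1.49 (adjusted p = 0.678).

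**Figure D2:**
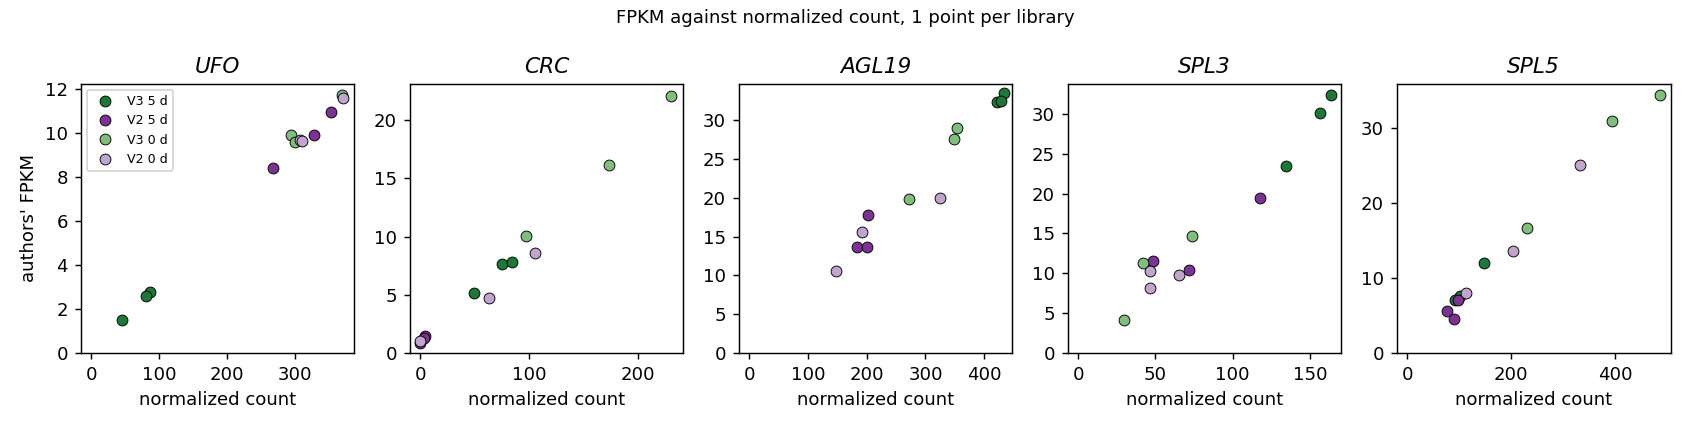
Authors' FPKM (y axis) against normalized count (x axis) for each of the 5 genes, 1 point per library, coloured by group. FPKM per count varied 1.11-fold for UFO and 4.96-fold for CRC, whose V2 5 d libraries and 1 V2 0 d library keep an FPKM of 0.841 to 1.51 at counts under 5.

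AGL19, the MADS-box promoter, was higher in growing-zone than in dormant-zone buds at 5 d. It had 422, 434 and 428 counts in V3 5 d, against 203, 184 and 200.3 in V2 5 d. At 0 d it had 354, 349 and 272 counts in V3, and 147, 324 and 191 in V2. The V3 5 d libraries lay above all others and varied least, with a coefficient of variation of 1.38%, against 41.8% in V2 0 d, the most variable group.

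The means were 428 ± 5.90 in V3 5 d and 196 ± 10.01 in V2 5 d (SD, n = 3 each), a log2 difference of 1.13 (0.57 to 1.69, adjusted p = 0.00732) that was called under every alternative run. At 0 d the difference was 0.62 (0.06 to 1.18, adjusted p = 0.16). It was called without V2 0 d replicate 2, the highest V2 0 d library, at an adjusted p of 0.0194. Over time AGL19 differed by 0.41 in V3 (-0.15 to 0.97, adjusted p = 0.273) and by -0.10 in V2 (-0.66 to 0.46, adjusted p = 0.817). The difference between these changes was 0.50 (-0.29 to 1.29, adjusted p = 0.425), so a different course in the zones was not shown.

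SPL3, a small SPL factor, was highest in growing-zone buds at 5 d. It had 164, 156 and 135 counts in V3 5 d, 71.7, 118 and 48.5 in V2 5 d, 29.7, 42.2 and 73.5 in V3 0 d, and 46.6, 65.3 and 46.4 in V2 0 d. All V3 5 d libraries lay above all others, and the remaining groups overlapped. Within V3 it rose over the 5 days by 1.72 (0.87 to 2.57, adjusted p = 0.0102), with means of 152 ± 15.0 at 5 d and 48.5 ± 22.5 at 0 d (SD, n = 3 each), and this was called under every alternative run.

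The zones at 5 d differed in SPL3 by 1.01 (0.16 to 1.86, adjusted p = 0.0629), which missed the threshold. The difference was called when V2 5 d replicate 2 (adjusted p = 0.0276), V3 0 d replicate 1 (0.0434) or V3 0 d replicate 3 (0.039) was left out. V2 5 d replicate 2, at 118, was the V2 library closest to V3. At 0 d the zones differed by -0.20 (-1.05 to 0.65, adjusted p = 0.783), and V2 changed over time by 0.51 (-0.34 to 1.35, adjusted p = 0.363). The change in V3 minus that in V2 was 1.21 (0.01 to 2.41, adjusted p = 0.206).

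SPL5, the other small SPL factor measured, followed an opposite course over time in V3. It had 147, 101 and 92.7 counts in V3 5 d and 97.9, 77.2 and 90.7 in V2 5 d. At 0 d it had 229.6, 393 and 486 in V3 and 112, 331 and 204 in V2. Every 5 d library of V3 lay below every 0 d library of V3, and the same held in V2, while the zones overlapped at both times.

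Within V3, SPL5 fell by 1.65 on the log2 scale (interval -2.56 to -0.74, adjusted p = 0.0166), with means of 114 ± 29.3 at 5 d and 369 ± 130 at 0 d (SD, n = 3 each). This call ended without V3 5 d replicate 2 (adjusted p = 0.0529), V3 5 d replicate 3 (0.0575) or V3 0 d replicate 3 (0.0581). Within V2 the difference was -1.15 (-2.06 to -0.24, adjusted p = 0.0678), with means of 88.6 ± 10.5 at 5 d and 216 ± 110 at 0 d. That difference was called by DESeq2 (0.016), and by limma without V2 0 d replicate 1 (0.0189) or V3 0 d replicate 1 (0.0474).

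SPL5 did not separate the zones. V3 minus V2 was 0.33 at 5 d (-0.58 to 1.24, adjusted p = 0.56) and 0.84 at 0 d (-0.07 to 1.75, adjusted p = 0.227), and the changes over time differed by -0.51 (-1.79 to 0.78, adjusted p = 0.638). SPL3 and SPL5 belong to 1 gene family, and how reads shared between related genes were counted is not given in the sources used here.

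**Figure D3:**
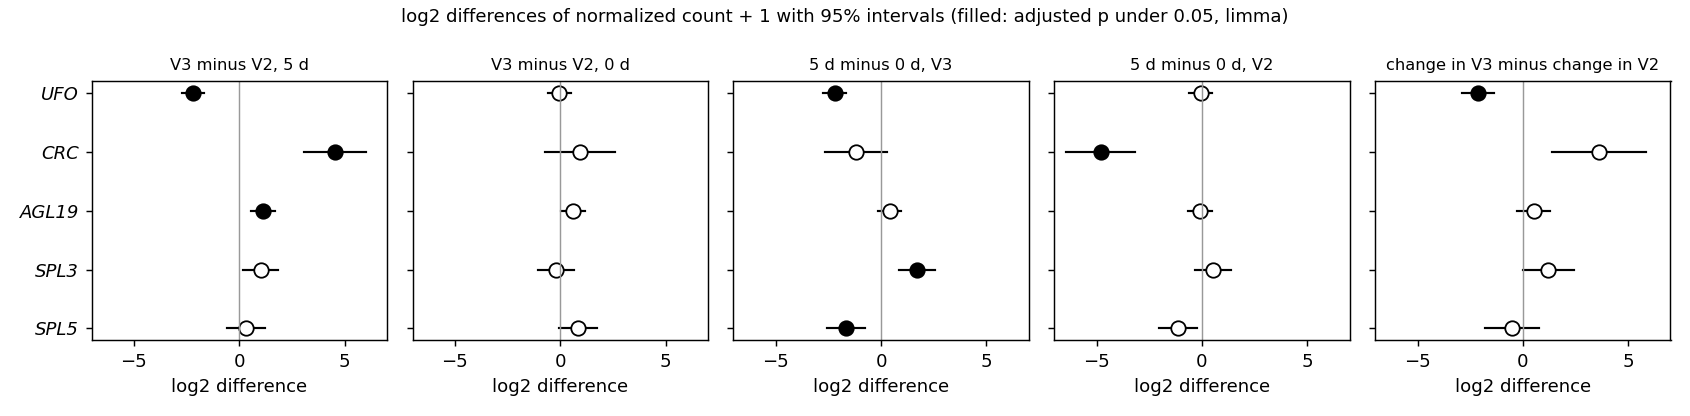
Log2 differences of normalized count + 1 (x axis) of the 5 genes (y axis) in the 5 comparisons, with 95% intervals as bars. Filled points have a limma adjusted p under 0.05: UFO, CRC and AGL19 for V3 minus V2 at 5 d, none at 0 d, UFO, SPL3 and SPL5 over time in V3, CRC over time in V2, and UFO for the difference between the changes.

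Counted together, 3 of the 5 genes were called between the zones at 5 d, 2 higher and 1 lower in V3, where 36.2% of all tested genes were called (16.3% higher and 19.9% lower). At 0 d limma, edgeR and DESeq2 each called 0 of the 5, against 3.99% of all genes by limma (1.11% higher and 2.89% lower in V3), and 1 gene, AGL19, had an unadjusted p under 0.05. Over time in V3, 3 of the 5 were called, 1 higher and 2 lower, against 24.4% of all genes (13.4% higher and 11% lower). Over time in V2, 1 of the 5 was called, and it was lower, against 23.8% of all genes (12.5% higher and 11.3% lower). For the difference between the changes, 1 of the 5 was called, with a lower value in V3, against 7.54% of all genes (4.15% higher and 3.39% lower). Which direction held more calls turned with zeros as deposited and with edgeR at 5 d, at 0 d and for the difference between the changes, for that difference also with DESeq2, and over time in V2 with TMM scaling. With 5 genes, taken from tables of changed genes, these counts are a description and are not set apart from the background by a test.

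The authors' deposited table gave the same direction for each gene it lists. For V3 5 d over V2 5 d, the authors' deposited table has log2 fold changes of -2.16 for UFO (adjusted p = 4.72e-19), 4.69 for CRC (0.00486) and 1.13 for AGL19 (0.000189). For V3 5 d over V3 0 d, the authors' deposited table has -2.18 for UFO (2.16e-19), 1.64 for SPL3 (0.000531) and -1.70 for SPL5 (0.000727). For V2 5 d over V2 0 d, the authors' deposited table has -4.38 for CRC (0.012) and -1.28 for SPL5 (0.0176).

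FPKM, which is scaled by transcript length, allows the levels of the genes to be set beside each other. In V3 5 d the mean FPKM was 32.7 for AGL19, 28.6 for SPL3, 8.94 for SPL5, 6.87 for CRC and 2.30 for UFO. In V2 5 d it was 15.0 for AGL19, 13.8 for SPL3, 9.75 for UFO, 5.80 for SPL5 and 1.23 for CRC. In V3 0 d it was 27.4 for SPL5, 25.4 for AGL19, 16.1 for CRC, 10.4 for UFO and 10.01 for SPL3. In V2 0 d it was 15.6 for SPL5, 15.4 for AGL19, 10.3 for UFO, 9.46 for SPL3 and 4.80 for CRC. By mean FPKM, SPL5 and AGL19 thus led at the end of cold in both zones, and AGL19 and SPL3 led at 5 d in both. Single libraries did not all keep this order. In V2 0 d the FPKM ranges of SPL5 (8.02 to 25.2) and AGL19 (10.6 to 19.9) overlapped that of UFO (9.62 to 11.6). In V2 5 d the range of SPL3 (10.4 to 19.4) overlapped that of UFO (8.41 to 10.9). FPKM per count also varied between libraries, 1.93-fold for SPL3 and 4.96-fold for CRC. UFO held the last place in V3 5 d and the third in both V2 groups. These ranks were not tested, and by mean normalized count all 5 genes sat in the lower part of the table, with 18.5% (CRC) to 38.4% (AGL19) of genes below them.

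Within the family of SPL transcription factors, 6 of 17 A. thaliana loci could be paired: SPL2, SPL3, SPL5, SPL10, SPL12 and SPL15. Pairing runs through the authors' tables of changed genes, so the paired genes were chosen on these libraries and the counts are not independent evidence of a direction. Between the zones at 5 d, 2 were higher in V3 (16.3% of all genes were), 1 was lower (19.9% of all genes were) and 3 were not called. The median difference was 0.67, against -0.04 over all genes. SPL2 averaged 1409.9 ± 121 in V3 5 d and 686 ± 73.5 in V2 5 d (1.04, adjusted p = 0.00266), and SPL10 averaged 608 ± 36.4 in V3 5 d and 304 ± 19.1 in V2 5 d (1.00, adjusted p = 0.000974). SPL12, which in A. thaliana is not a target of miR156, averaged 577 ± 43.4 in V3 5 d and 1303 ± 96.2 in V2 5 d (-1.17, adjusted p = 0.00161).

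Over time in V3, 2 of the 6 SPL genes rose, SPL3 and SPL10, and 2 fell, SPL5 and SPL15. Of all genes, 13.4% were called higher and 11% lower in that comparison. SPL10 averaged 608 ± 36.4 at 5 d and 354 ± 30.4 at 0 d (0.78, adjusted p = 0.00446). SPL15, which promotes flowering at the shoot tip in A. thaliana, averaged 78.2 ± 11.7 at 5 d and 170 ± 56.5 at 0 d (-1.07, adjusted p = 0.0204), a call that held in 18 of 25 alternatives. Over time in V2, SPL12 rose (1.08, adjusted p = 0.00483), SPL15 was called lower (-0.87, adjusted p = 0.0459), which held in 10 of 25 alternatives, and 4 were not called. Of all genes, 12.5% were called higher and 11.3% lower over time in V2. At 0 d, SPL10 was called higher in V3 than in V2 (0.62, adjusted p = 0.0492), which held in 8 of 25 alternatives, and 1.11% of all genes were called higher there.

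Among 11 floral meristem identity genes and UFO partners, BOP2 was the other paired gene. BOP2 encodes a boundary protein that in A. thaliana promotes floral meristem fate together with its homologue BOP1. It averaged 162 ± 7.26 in V3 5 d and 297.5 ± 37.1 in V2 5 d (-0.87, adjusted p = 0.00493), and it was also lower in V3 5 d than in V3 0 d, where it averaged 325 ± 24.8 (-0.999, adjusted p = 0.00341). Its change in V3 minus that in V2 was -1.42 (adjusted p = 0.0107). UFO and BOP2, the paired genes of that list, were each lower in V3 5 d than in V2 5 d and in V3 0 d, in comparisons that share the V3 5 d libraries.

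Of 15 floral integrators and MADS-box promoters only AGL19 was paired, and of 6 YABBY genes only CRC. Of 20 floral organ and carpel genes, CRC and ETT were paired, and ETT had too few usable libraries to test. None of 10 polycomb and vernalization genes was paired. LFY, AP3, SOC1, FT and the other unpaired loci are not analysed here.

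The floral repressors form the list on the other side, with 7 of 19 loci paired. Between the zones at 5 d, 4 of 5 tested were lower in V3 (19.9% of all genes were) and 1, TOE3, was not called (0.79, adjusted p = 0.289). TFL1, which keeps shoot meristems vegetative, averaged 444 ± 76.1 in V3 5 d and 2769 ± 236 in V2 5 d (-2.65, adjusted p = 1.16e-05). SVP, a MADS-box repressor, averaged 2028 ± 300 in V3 5 d and 5613 ± 795 in V2 5 d (-1.47, adjusted p = 0.000308). TEM1 averaged 389 ± 77.9 in V3 5 d and 3409.8 ± 339 in V2 5 d (-3.15, adjusted p = 0.00146), and its relative TEM2 averaged 43.6 ± 16.2 in V3 5 d and 265 ± 65.0 in V2 5 d (-2.61, adjusted p = 0.0109). The median of the 5 was -2.61, against -0.04 over all genes. The repressors were paired through the authors' tables of changed genes. Neither the count nor the median is therefore independent evidence of a direction, and the unpaired loci of the list are not covered.

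TFL1 also fell over time in V3. It averaged 444 ± 76.1 at 5 d and 3320.4 ± 580 at 0 d in V3 (-2.90, adjusted p = 4.19e-06), in V2 it differed by -0.12 (adjusted p = 0.659), and the changes differed by -2.78 (adjusted p = 0.00012). SVP was also called over time in V3 (-0.52, adjusted p = 0.0481) and for the difference between the changes (-0.92, adjusted p = 0.0462), calls that held in 8 of 25 and 8 of 24 alternatives. SMZ was listed at 0 in all 3 V3 0 d libraries, and at 18.3 and 54.4 in 2 usable V2 0 d libraries. It was called lower in V3 at an adjusted p of 0.00324, a call that zeros as deposited and edgeR both ended, with adjusted p-values of up to 0.222.

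**Figure D4:**
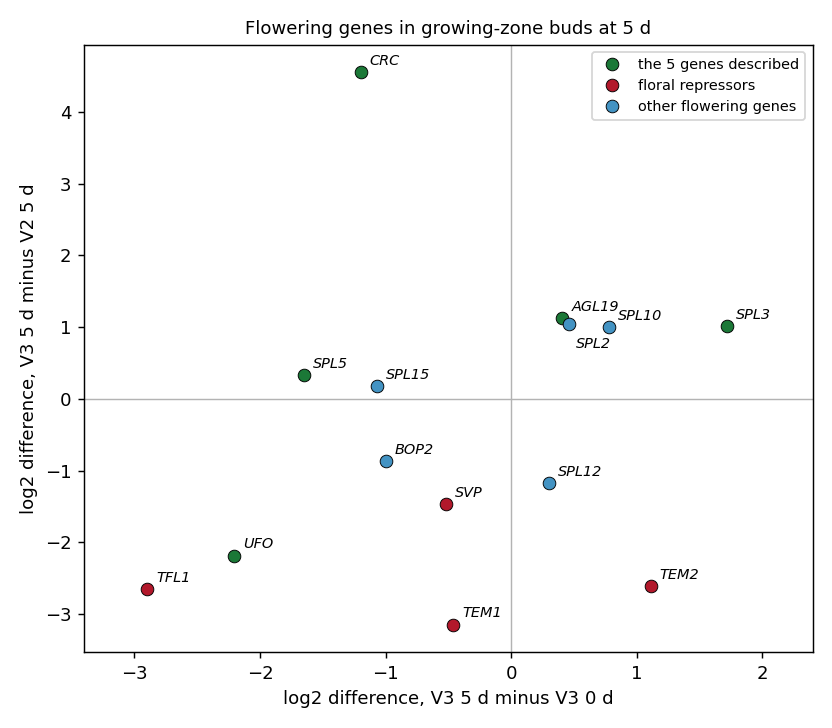
Log2 difference of V3 5 d minus V2 5 d (y axis) against that of V3 5 d minus V3 0 d (x axis) for the 5 genes (green), floral repressors (red) and other flowering genes (blue) tested in both. The axes share the V3 5 d libraries; UFO, TFL1, BOP2, SVP and TEM1 lie below 0 on both axes, AGL19, SPL2, SPL10 and SPL3 lie above 0 on both, and CRC is at 4.55 and -1.20.

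Markers of other bud cells moved with the zone or the time as well. The sums given here cover the paired loci with a usable value in all 12 libraries. Of 10 vascular loci 3 were paired and 1, XCP1, was usable throughout. XCP1 had 264 to 319 counts in V3 5 d and 27.8 to 109 in V2 5 d, and was at 0 in every 0 d library. XCP2 averaged 173 in V3 5 d and 77.4 over 2 usable V2 5 d libraries (1.15, adjusted p = 0.386). APL had no usable V3 5 d library. At 0 d it averaged 3.26 over 2 usable V3 libraries and 33.9 in V2 (-3.60, adjusted p = 0.0893), so the vascular markers did not share a direction between the zones. Of 11 photosynthetic loci 2 were paired and 1 was usable throughout, FBA2, which had 12916 to 14926 counts in V3 5 d and 8425 to 11480.3 in V2 5 d, against 1711 to 3709 in V3 0 d and 3429 to 4375 in V2 0 d. Of 9 dormancy loci 7 were paired and 5 were usable throughout, summing to 652 to 966 in V3 5 d, 6309.9 to 8309 in V2 5 d, 649 to 2831 in V3 0 d and 3692 to 7749.7 in V2 0 d. The sum pools opposite changes. Over time in V3, 1 of 7, HIS1-3, was called higher (2.19, adjusted p = 0.0355, in 11 of 25 alternatives) and 2, HB40 and HB53, lower. In V2, HIS1-3 was called higher (2.20, adjusted p = 0.0369, in 13 of 25) and HB40 lower. Of all genes, 13.4% were called higher and 11% lower in V3, and 12.5% and 11.3% in V2. At 5 d, 7 of 7 paired dormancy markers were lower in V3 than in V2, against 19.9% of all genes, while with zeros as deposited 5 of 7 were and with edgeR 4 of 7. The paired markers all stand in the authors' tables of changed genes, so these counts are not independent evidence of a direction. The part of these shifts in the results for the 5 genes was not tested.

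For each gene, the 3 named genes with the most similar profile were taken from 1346 tested genes with a symbol (1311 for CRC). Similarity was Pearson's r of log2 values over the usable libraries. These candidates all stand in the authors' tables of changed genes, so they were chosen on these libraries and do not cover all tested genes. The libraries are shared by all genes and fall into 4 groups, so these r values describe the group pattern and carry no test. For UFO they were GA20OX2 (r = 0.972, 10 libraries), KNAT6 (0.969, 12 libraries) and NAC025 (0.965, 10 libraries), and GA20OX2 was listed at 0 in V3 5 d, where it averaged 43.7 in V2 5 d. For CRC they were CC3 (0.972), TPR10 (0.971) and TUB7 (0.963), each over 11 libraries, and TUB7, a tubulin, averaged 11558 in V3 5 d and 4953 in V2 5 d.

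For AGL19 they were MUS (0.926), POLAR (0.912) and SPL2 (0.909), each over 12 libraries, of which POLAR is known from the stomatal lineage. POLAR averaged 581 in V3 5 d and 148 in V2 5 d. For SPL3 they were GER3 (0.943), DHAR1 (0.930) and TBL7 (0.921), and GER3, a germin, averaged 9315 in V3 5 d and 851 in V3 0 d. For SPL5 they were PAB1 (0.931, 12 libraries), AT-HSFA7B (0.930, 10 libraries), a heat shock factor gene listed at 0 at 5 d in both zones, and COL2 (0.906, 12 libraries).

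V2 0 d replicate 2 held the highest value of its group in 5 of 5 genes, and V2 0 d replicate 1 the lowest for UFO, AGL19 and SPL5, with its CRC value left out. In V3 0 d, replicate 1, which stood apart from its group, held the highest value for CRC and AGL19 and the lowest for UFO, SPL3 and SPL5. V3 0 d replicate 1 was also left out together with V2 0 d replicate 3, the library with the most contradicted zeros. This choice was made after seeing the data. Members called were then 3 between the zones at 5 d, 0 at 0 d, 3 over time in V3 and 1 for the difference between the changes. CRC within V2 could not be tested in that fit.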

How the data were processed

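Libraries of 150 bp single reads were made from 1 µg of RNA per sample with a directional kit, per the labels' protocols. HISAT2, StringTie, TopHat and DESeq2 were used, per the submitters' processing notes. For versions, settings, strand handling and genome build the answer is: not given in the sources used here. The deposited signal values are normalized counts, which the authors obtained by dividing gene counts by 1 factor per library. All values (100%) were whole multiples of a library's step within 0.05, so whole reads were recovered. For V2 replicate 2 this step was near 1 at 0 d and at 5 d, and it rests on the smallest value there. The authors made FPKM per library for listed genes. The authors' deposited log2 fold changes and adjusted p-values cover listed genes. FPKM of 1 displaced row was not used. The normalized counts that the comparison tables also carry for listed genes were not read, and those of the full count table were used.

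A deposited count of 0 was left out as contradicted where its FPKM was at least 1 or gave an expected count of at least 20. Without FPKM, it was left out where a partner library of the group reached 20. There were 17395 such values, 5320 by FPKM and 12075 by partner libraries, and 158 discordant zeros were kept. The test was limma 3.58.1 (R 4.3.3) with an intensity trend on log2(normalized count + 1) over all 12 libraries, with 1 mean per group. Genes needed a mean of 10 or more, and in each compared group 2 or more usable libraries. P-values were two-sided and adjusted with the Benjamini-Hochberg method over all genes of a comparison. Alternatives were edgeR 4.0.16 and DESeq2 1.42.0 on recovered reads, other zero rules, pseudocounts of 0.5 and 4, no minimum mean, TMM scaling, no intensity trend, only the groups compared, a replicate block and leaving out each library. TMM moved the median of all genes by at most 0.05 on the log2 scale. The test was checked on simulated data. The members and the gene lists were chosen with earlier results of these data known. Named genes are the 5 members, up to 4 called members of each flowering list in each comparison by smallest adjusted p, and the 3 genes most like each member. TOE3, ETT and the marker genes were named outside this rule, after their values had been seen. Intervals of read ratios (exact binomial, 95%) and the limits for counts of 0 reads (exact Poisson, 95%) cover counting error only.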

Additional observations from a re-analysis of the deposited data

Results flagged for a closer look

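The change of UFO over the 5 days differed between the zones, by the interaction test in limma: V3 minus V2 was -2.14 on the log2 scale (-2.90 to -1.38, adjusted p = 0.00617). UFO was lower at 5 d than at 0 d in V3 by -2.21 and differed by -0.06 in V2. Every V3 5 d library (45.8 to 86.5 counts) lay below every V3 0 d library (294 to 369), while V2 5 d (268 to 353) and V2 0 d (308 to 371) overlapped. Over 24 alternatives the difference ran from -2.31 to -1.86 and was called in 24.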

How the results depend on the processing

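Over 611 values of single members under the alternatives, 595 kept their side of the threshold, 7 lost the call, 9 gained it and 0 changed sign where called. Values that stayed uncalled were not held to a direction, and some turned. UFO between the zones at 0 d, for example, ran from -0.15 to 0.05. The calls of UFO, of AGL19 between the zones at 5 d and of SPL3 over time in V3 held under all alternatives run, and those of CRC and SPL5 did not, as given with their values above. The cause of these changes was not tested.

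Counts of genes called moved more. The 6253, 660, 4191, 3954 and 1209 genes of V3 5 d against V2 5 d, V3 0 d against V2 0 d, V3 over time, V2 over time and the difference between the changes became 3161, 85, 2044, 1691 and 295 with zeros judged by FPKM alone. They became 2760, 394, 1583, 1705 and 516 with edgeR. With zeros as deposited they were 3131, 577, 2052, 2140 and 764. Higher and lower calls numbered 2809 and 3444 at 5 d, 183 and 477 at 0 d, 2301 and 1890 over time in V3, 2075 and 1879 over time in V2, and 665 and 544 for the difference between the changes. They numbered 1577 and 1554, 301 and 276, 1284 and 768, 1222 and 918, and 339 and 425 with zeros as deposited, and 1603 and 1157, 250 and 144, 1023 and 560, 909 and 796, and 189 and 327 with edgeR. Over time in V2 they numbered 1892 and 2076 with TMM scaling, and for the difference between the changes 1004 and 1047 with DESeq2. DESeq2 called 2193 genes at 0 d and 2051 for the difference between the changes. At 0 d, 185 genes were called with only the groups compared and 221 without V3 0 d replicate 1 and V2 0 d replicate 3 together. Of the 5 genes, V2 over time called 0 with zeros as deposited, with edgeR and without those 2 libraries together, and 2 with DESeq2, against 1; a pseudocount of 4 called 2 for the difference between the changes, CRC at an adjusted p of 0.0415, against 1.

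Leaving out 1 library at a time gave 4738 to 7046, 166 to 1681, 2849 to 4118, 2041 to 4948 and 689 to 1951 genes called, and 3 to 4, 0 to 1, 2 to 3, 0 to 2 and 1 to 2 of the 5 genes. The lowest and highest counts at 0 d came without V2 0 d replicate 1 and V3 0 d replicate 2, so the background of 3.99% there depends on single libraries. Same-numbered replicates did not deviate together: 18 correlations over 9998 genes ran from -0.13 to 0.10, with 1 above 0.1. With the replicate number as a block, the genes called were 5681, 302, 3523, 3175 and 761, and members called stayed at 3, 0, 3, 1 and 1. CRC had at most 4 reads in each V2 5 d library, which limits the precision of its folds.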
